A study of Homo sapiens with 12 samples.

Results

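Chromatin regulators were examined in 2 human triple-negative breast cancer (TNBC) cell lines in which SMARCA4, the ATPase of the SWI/SNF remodeling complex, had been knocked out (KO). The genes comprised writers, erasers and readers of histone marks, DNA methylation enzymes and remodelers outside SWI/SNF. They were chosen by symbol, as every row of the deposited expression table whose name begins with KAT, HDAC, SIRT, KMT, SETD, KDM, PRMT, DNMT, TET, BRD, BAZ, CHD or INO80, followed by a digit for KAT, TET, CHD and BRD. This gave 85 of 11529 rows, 84 protein-coding genes and the antisense RNA SETD5-AS1. The annotation holds 108 protein-coding genes whose symbols fit this rule. Of these, 84 were members, 4 had a row under an older name, and 20 were not analysed here, among them DNMT3B, TET1 and TET2.

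MDA-MB-468 cells are of the stem-like (SL) subtype and MDA-MB-231 cells of the mesenchymal-like (MSL) subtype. For each cell line RNA was sequenced from 3 control samples, labelled wild type, and from 3 samples of SMARCA4 KO cells, 12 samples in all. The KO cells were pools infected with the lentiCRISPR-v2 vector, which carries Cas9 and a guide RNA, and selected with puromycin, without a cloning step in the sources used here. Elsewhere in the study, cells given a nontargeting CRISPR vector are called control and parental cells wild type, while here the columns are named control and the labels say wild type, so which of them served as control is not certain. The labels do not say whether the 3 samples of a group came from separate cultures, so p-values measure the spread between these samples, which may be technical. Values are log2(FPKM + 1) as the authors deposited them, FPKM being the fragments of a transcript per unit of its length and of all mapped fragments. This scale understates the change of genes with low FPKM, and the read depth behind the values is unknown. In RNA from a whole culture, fewer cells that express a gene and less RNA per cell cannot be told apart.

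DNA in the nucleus is wound around histones, and enzymes add or remove acetyl and methyl groups on the histone tails. Acetyltransferases (KAT) and deacetylases (HDAC, SIRT) set the acetyl marks that bromodomain proteins (BRD, BAZ) bind, while lysine and arginine methyltransferases (KMT, SETD, PRMT) and demethylases (KDM) set the methyl marks. DNMT and TET enzymes add and oxidize methyl groups on the DNA itself, and the CHD and INO80 proteins slide or exchange nucleosomes with energy from ATP, as SWI/SNF does. SWI/SNF is altered in many cancers, and BRD7 and BRD9 are subunits of some of its forms.

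The 20 bases of the guide RNA are shown because the cut they direct defines the KO groups. Capitals mark the NGG motif that Cas9 needs next to its target, which is not part of the guide.
SMARCA4 guide with motif: atggtccctctcgcagcccaTGG
In hg19 the 20 bases lie between 11095933 and 11095952 of chromosome 19 (plus strand), inside SMARCA4 (11071608 to 11190102). In the MANE Select transcript they span the end of intron 2 and the start of exon 3, 16 bases being intronic and 4 exonic. SMARCA4 RNA served as the check of the labels. Its log2 values were 6.61, 6.62 and 6.68 in MDA-MB-468 control samples and 5.35, 5.48 and 5.61 in KO samples. In MDA-MB-231 cells they were 6.10, 6.18 and 6.09 in control samples and 4.46, 4.64 and 4.56 in KO samples. All KO samples lay below the controls of their cell line, by -1.16 (standard error 0.08, limma, Benjamini-Hochberg adjusted p = 0.0137) and -1.57 (standard error 0.06, adjusted p = 0.00143) as log2 fold changes. Part of the SMARCA4 RNA thus remained measurable in both pools. With a block for the replicate number, the adjusted p was 0.0329 and 0.0520 by limma. In MDA-MB-468 cells it stayed under 0.05 in 3 of the 6 fits that left out 1 library, those without control replicate 1, KO replicate 1 or KO replicate 3, and was at most 0.0748 in the others.

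All 85 chromatin genes were above 0 in all 12 samples, as were 11293 to 11362 rows of the table in each. Samples of the same group correlated across genes at 0.989 to 0.995, and samples of different cell lines at 0.665 to 0.701. These values are across genes, which are not independent, and describe the samples only. The 8 epithelial and basal markers had a summed FPKM of 5894 to 7400 in MDA-MB-468 samples and 794 to 1306 in MDA-MB-231 samples, and the 3 measured mesenchymal markers (VIM, ZEB1, FN1) summed to 15.3 to 20.7 and 1059 to 1548. The epithelial sum, most of it from KRT8, KRT18 and KRT19, was above the controls in all KO samples of both cell lines, while EPCAM was at -0.09, with all KO samples below the controls, and CDH1 at -0.22 in MDA-MB-468 cells. In addition, the mesenchymal sum was below the controls in all MDA-MB-231 KO samples. The part of these shifts in the results on chromatin genes was not tested. Of the receptors that define triple-negative cells when low, ERBB2 was at 18.7 to 28.7 FPKM, and ESR1 and PGR were not analysed here. The same holds for the markers of leukocytes, fibroblasts and endothelial cells.

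The level of the chromatin genes was examined before any comparison. The median of their mean FPKM over the 12 samples was 20.7. The highest were DNMT1, which maintains DNA methylation after replication, at 254 FPKM, the deacetylase HDAC2 at 172, the main arginine methyltransferase PRMT1 at 167, the deacetylase HDAC1 at 102 and CHD4, the ATPase of the NuRD complex, at 96.1. The lowest were the demethylases KDM4C at 4.05 and KDM6B at 5.23, the class IIa deacetylase HDAC4 at 5.27, the acetyltransferase KAT2B at 5.28 and the DNA demethylation enzyme TET3 at 6.58. In all, 15 genes were under 10 FPKM and 16 over 50. The authors had removed genes with a mean or an SD of FPKM under 1, so a gene that varied little at a low level is not among the 85. Together they took 0.358% to 0.386% of the FPKM of the table in MDA-MB-231 samples and 0.417% to 0.456% in MDA-MB-468 samples.

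How the chromatin genes differed between the cell lines before KO was asked by comparing the control samples, MDA-MB-468 minus MDA-MB-231. Here and below, a gene was called with a Benjamini-Hochberg adjusted p under 0.05 over all 11529 rows from limma and an absolute log2 difference over 0.5. Of the 85 genes, 23 were called higher and 13 lower in MDA-MB-468 cells, 42.4% of the members, where 64.1% of all rows were called (32.7% higher and 31.4% lower). The median absolute difference was 0.41 among the members and 0.73 among all rows. Without the limit on the difference, 61 members passed, 38 higher and 23 lower (83.8% of all rows passed, 42.4% higher and 41.5% lower). The control groups of 63 members did not overlap (85.5% of all rows).

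Of the writers of acetyl marks, KAT2A and KAT2B, paralogs that act as the catalytic subunit of the SAGA and related complexes, were both lower in MDA-MB-468 cells, and no acetyltransferase was called higher. KAT5 was 0.49 higher, just under the limit of 0.5, and had an adjusted p under 0.05 by limma in all 14 alternatives. KAT2B, on chromosome 3 from 20081938 to 20195896 in hg19, had log2 values of 1.23, 1.17 and 1.52 in MDA-MB-468 control samples and 3.30, 3.46 and 3.38 in MDA-MB-231 control samples. The groups were far apart, at -2.07 (standard error 0.11, limma, adjusted p = 6.0e-07), the largest among the 85 genes, and the mean FPKM was 6.33 times as high in MDA-MB-231 cells. KAT2A differed less, with 4.31, 4.51 and 4.54 against 5.22, 5.16 and 5.26, a difference of -0.76 (standard error 0.08, adjusted p = 5.9e-05 by limma). The FPKM of KAT2A exceeded that of KAT2B by a factor of 14.4 ± 2.79 (SD, n = 3) in MDA-MB-468 control samples and 3.84 ± 0.34 (SD, n = 3) in MDA-MB-231 control samples. Both cell lines thus had more KAT2A than KAT2B RNA per length.

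Of the lysine methyltransferases, SETD4, SETD6, SETD9 and SETDB1 were called higher and SETD8 (current name KMT5A) lower in MDA-MB-468 cells. SETD6, which methylates the NF-kB subunit RELA, had values of 4.68, 4.73 and 4.62 against 3.17, 3.06 and 3.32, a difference of 1.49. SETD9 was 1.26 and SETDB1, a histone H3 methyltransferase that silences repeats, 0.90 higher. The KMT2 genes, which encode large H3 methyltransferases of the COMPASS complexes, were not called: KMT2A differed by 0.36, KMT2C by -0.04 and KMT2D by 0.11, and the nuclear H3 methyltransferase SETD2 by -0.04. All 3 called arginine methyltransferases, PRMT1 (-0.50), PRMT3 (-1.24) and PRMT5 (-0.87), were lower in MDA-MB-468 cells. PRMT3, which acts on a ribosomal protein, had values of 3.02, 3.04 and 3.04 against 4.49, 4.23 and 4.10. PRMT5, the main enzyme of symmetric dimethylation, had 5.86, 5.91 and 6.17 against 6.89, 6.84 and 6.83. The 2 groups overlapped in neither gene.

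The deacetylases HDAC5 and HDAC9 belong to the same class IIa, which moves between the nucleus and the cytoplasm, and differed in opposite directions. HDAC5 had 4.65, 4.44 and 4.48 in MDA-MB-468 control samples and 2.58, 2.83 and 2.88 in MDA-MB-231 control samples, a difference of 1.76 (standard error 0.10, limma, adjusted p = 1.4e-06). HDAC9 had 2.54, 2.41 and 2.49 against 4.13, 3.77 and 3.78, a difference of -1.41 (standard error 0.11, adjusted p = 7.1e-06 by limma). The ratio of HDAC9 to HDAC5 FPKM was therefore 0.208 ± 0.0082 (SD, n = 3) in MDA-MB-468 and 2.46 ± 0.74 (SD, n = 3) in MDA-MB-231 control samples, and which gene had more RNA per length differed between the cell lines. HDAC2 (0.92) and HDAC11 (1.01) were also called higher, whereas HDAC1, the paralog of HDAC2, was 0.32 higher and HDAC3 differed by -0.04, neither called. HDAC1 FPKM was 0.488 ± 0.028 (SD, n = 3) of that of HDAC2 in MDA-MB-468 and 0.741 ± 0.067 (SD, n = 3) in MDA-MB-231 control samples. Of the sirtuins, NAD-dependent deacylases, the mitochondrial SIRT5 was called higher (1.17) and the nuclear SIRT6 lower (-0.92), and SIRT1 differed by 0.43.

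Among the demethylases, KDM1B (1.47), KDM4A (0.86), KDM4C (1.38), KDM5B (1.0) and KDM6B (0.87) were called higher and KDM3A (-0.69) and KDM4B (-0.63) lower in MDA-MB-468 cells. KDM1B, a flavin-dependent demethylase, had 4.67, 4.39 and 4.34 against 3.18, 3.0 and 2.81, and KDM5B, which removes methyl groups from H3, had 5.05, 4.82 and 4.93 against 3.72, 4.09 and 3.99. In both genes the lowest MDA-MB-468 sample was above the highest MDA-MB-231 sample. KDM6A and KDM5C, X-linked demethylases, differed by -0.11 and -0.01, and KDM1A, the paralog of KDM1B, by 0.48.

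All 3 measured genes of DNA methylation were called higher in MDA-MB-468 cells, with a median difference of 1.31. The authors' limit on the SD of FPKM keeps a low gene more readily where it differs between the cell lines. The 3 genes are therefore not an unselected part of the family, of which DNMT3B, TET1 and TET2 were not analysed here. DNMT3A, a de novo methyltransferase, had 4.03, 3.73 and 3.72 in MDA-MB-468 control samples and 1.98, 2.02 and 1.85 in MDA-MB-231 control samples, a difference of 1.88 (standard error 0.10, limma, adjusted p = 9.1e-07). DNMT1 had 8.39, 8.54 and 8.50 against 7.27, 7.11 and 7.19, a difference of 1.29 (standard error 0.08, adjusted p = 1.6e-06 by limma). TET3, which oxidizes methylcytosine, had 3.53, 3.37 and 3.46 against 2.30, 2.08 and 2.04, a difference of 1.31 (standard error 0.09, adjusted p = 3.7e-06 by limma). The summed FPKM of the 3 genes was 361 to 392 in MDA-MB-468 and 143 to 160 in MDA-MB-231 control samples, most of it from DNMT1.

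Of the bromodomain readers, BRD1, BRD7 and BAZ2B were called higher and BRD8 and BAZ1B lower in MDA-MB-468 cells. BRD7, a subunit of the PBAF form of SWI/SNF, had 6.35, 6.48 and 6.48 against 4.97, 5.0 and 4.97, a difference of 1.46 (standard error 0.07, limma, adjusted p = 4.2e-07). BRD9, a subunit of another form, differed by -0.19 and was not called. BRD2, which binds acetylated histones at active genes, was also not called, at -0.25. Of the remodelers, CHD1L, CHD3, CHD4 and CHD9 were called higher and CHD1, which spaces nucleosomes in transcribed genes, lower (-0.54). CHD3 and CHD4, alternative ATPases of NuRD, differed by 0.61 and 0.50. CHD6, CHD7 and INO80 differed by 0.05, 0.09 and 0.13.

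These differences were also seen in the KO samples, which the comparison of controls did not use. All 36 called genes had the same sign between the KO samples of the cell lines, and for 35 the KO groups did not overlap in the same direction. Among all 7395 called rows it was 96.1%.

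**Figure D1:**
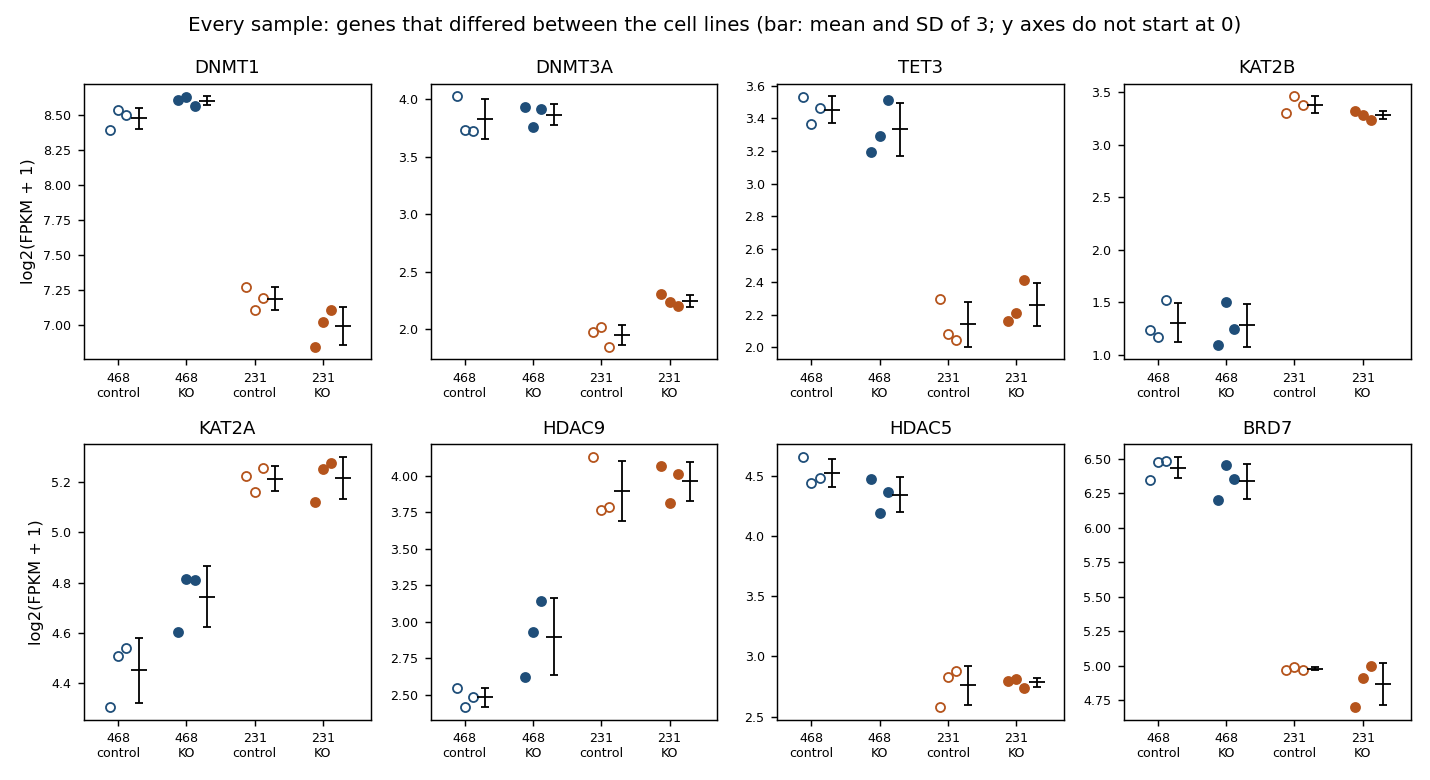
log2(FPKM + 1) of 8 chromatin genes in each of the 12 samples, with open points for control and filled points for KO samples, blue for MDA-MB-468 and orange for MDA-MB-231, and the mean and SD of 3 samples beside them. In each panel the samples of the cell lines do not overlap, and DNMT1, DNMT3A, TET3, HDAC5 and BRD7 are higher in MDA-MB-468 cells.

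The response to SMARCA4 KO was compared within each cell line, 3 KO against 3 control samples. In MDA-MB-468 cells, 0 of the 85 genes were called by limma, where 2.14% of all rows were called. At an unadjusted p under 0.05, 12 were higher and 2 lower in KO cells (25.1% of all rows passed, 14.1% with KO higher). The groups did not overlap for 14 with KO higher and 5 with KO lower, 22.4% of the members against 31.0% of all rows (17.5% and 13.5%). The log2 fold changes lay between -0.37 (CHD6) and 0.42 (HDAC9), with a median of -0.01, against 0.02 for all rows. HDAC9 and CHD6 thus bounded a narrow range, and neither passed the adjusted test.

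With no limit on the fold change, KAT5 rose in MDA-MB-468 KO cells, the only one of the 85 to pass an adjusted p under 0.05 (3.75% of all rows passed). KAT5 is the acetyltransferase of the NuA4 complex, which acts on histones H4 and H2A and in DNA repair, and lies on chromosome 11 from 65479467 to 65487075 in hg19. Its log2 values were 5.97, 6.03 and 5.99 in control and 6.30, 6.25 and 6.26 in KO samples. The KO samples were all above the controls, at 121% of the control FPKM, or 0.27 on the log2 scale (standard error 0.04, adjusted p = 0.0357 by limma). With a block for the replicate number it was 0.0743, and of the 6 fits that left out 1 library it stayed under 0.05 only without KO replicate 1 (adjusted p = 0.0476 to 0.136). Corrected for GC content and length, KAT5 had an adjusted p of 0.0589 by limma.

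KAT2A and KAT8 were also higher, without passing the adjusted test. KAT2A had 4.31, 4.51 and 4.54 in control and 4.60, 4.82 and 4.81 in KO samples (log2 fold change 0.29, limma, adjusted p = 0.132). KAT8, which acetylates histone H4, had 4.21, 4.32 and 4.43 and then 4.56, 4.57 and 4.67 (0.28, adjusted p = 0.0894 by limma). In both, every KO sample lay above every control. KAT2B was at 1.23, 1.17 and 1.52 in control and 1.1, 1.50 and 1.25 in KO samples, which overlapped, and KAT7 was lower in all KO samples by 0.10 without passing. Of the 6 acetyltransferases, 3 were higher and 3 lower in KO cells. Their summed FPKM was 124 to 131 in control and 146 to 152 in KO samples. KAT5 had the highest level of the 6, with a mean of 57.5 FPKM over the 12 samples.

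Of the 6 arginine methyltransferases, 4 were higher in MDA-MB-468 KO cells, 3 of them at an unadjusted p under 0.05 (PRMT1, PRMT2 and PRMT5; 14.1% of all rows) and 0 after adjustment. PRMT1 had 6.88, 7.14 and 7.19 in control and 7.24, 7.39 and 7.52 in KO samples, with every KO sample above the controls (log2 fold change 0.31, limma, adjusted p = 0.162). HDAC9, the deacetylase with the lower level in these cells, had 2.54, 2.41 and 2.49 in control and 2.62, 2.93 and 3.14 in KO samples (0.42, adjusted p = 0.141 by limma). Its KO values were spread widely, and the lowest, KO replicate 1, was only just above the highest control. Without that library HDAC9 was at 0.56 with an adjusted p of 0.0391 by limma, and 474 of all rows were then called, against 247. It passed in only this 1 of the 6 fits that left out 1 library. In the others it was at 0.29 or more, with an adjusted p up to 0.313 by limma. The sirtuin SIRT7, which acts in the nucleolus, was at 0.29 (adjusted p = 0.0735 by limma) and the methyltransferase SETD7 at -0.31 (adjusted p = 0.105 by limma), both without overlap. None of the 14 demethylases reached an unadjusted p under 0.05, and 6 were higher and 8 lower.

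In MDA-MB-231 cells, 0 of the 85 genes were called, where limma called 3.70% of all rows. At an unadjusted p under 0.05, 18 were higher and 8 lower in KO cells (31.2% of all rows passed, 14.8% higher and 16.4% lower). The groups did not overlap for 19 with KO higher and 12 with KO lower, 36.5% of the members and 36.0% of all rows (16.6% and 19.4%). The median log2 fold change was 0.07, against -0.01 for all rows, and the range was -0.36 (PRMT6) to 0.74 (HDAC11). Without the limit on the fold change, 5 genes passed an adjusted p under 0.05 (10.8% of all rows passed, 5.34% higher and 5.48% lower). DNMT3A, KDM3A and SETDB1 rose, and PRMT6 and CHD1 fell.

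PRMT6, an arginine methyltransferase of histone H3 on chromosome 1 (107599296 to 107610258 in hg19), had 3.55, 3.50 and 3.64 in control and 3.24, 3.20 and 3.18 in KO samples. All KO samples lay below all controls, and the FPKM in KO cells was 75.8% of the control (log2 fold change -0.36, standard error 0.05, limma, adjusted p = 0.0191). KDM3A, a demethylase of H3 on chromosome 2 (86667770 to 86719839), had 4.28, 4.41 and 4.50 in control and 4.69, 4.85 and 4.72 in KO samples (0.35, standard error 0.08, adjusted p = 0.0446 by limma). DNMT3A had 1.98, 2.02 and 1.85 in control and 2.30, 2.24 and 2.20 in KO samples (0.30, standard error 0.06, adjusted p = 0.0403 by limma), at 131% of the control FPKM. In KO cells it remained well below its level in MDA-MB-468 cells, where it was 3.72 or more in every sample.

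SETDB1 had 3.95, 4.08 and 4.07 in control and 4.28, 4.24 and 4.27 in MDA-MB-231 KO samples (0.23, limma, adjusted p = 0.0459), and CHD1 had 5.12, 5.17 and 5.10 and then 4.94, 4.84 and 4.93 (-0.22, adjusted p = 0.0442 by limma). Neither pair of groups overlapped. When 1 library was left out, PRMT6 passed in 2 of 6 fits, those without control replicate 2 or 3, and was at up to 0.0855 in the others. KDM3A, DNMT3A, SETDB1 and CHD1 passed in 0 of these 6 fits, which have fewer samples (adjusted p = 0.0626 to 0.131 by limma). Their log2 fold changes then stayed at 0.30 to 0.41, 0.25 to 0.33, 0.19 to 0.26 and -0.24 to -0.19. HDAC11, the class IV deacetylase and the member with the largest value, had 2.29, 2.96 and 2.97 in control and 3.52, 3.27 and 3.64 in KO samples. Control replicate 1 was far below the other controls, which lay close together, and the log2 fold change of 0.74 had a standard error of 0.21 (adjusted p = 0.0784 by limma).

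By family, most KDM demethylases were at positive values in MDA-MB-231 KO cells. Of the 14, 12 were higher in KO, 8 of them at an unadjusted p under 0.05 and without overlap between the groups, and 1, KDM3A, after adjustment (14.8%, 16.6% and 5.34% of all rows were higher by these rules). The median log2 fold change was 0.20, against -0.01 for all rows, and the summed FPKM of the 14 genes was 274 to 287 in control and 309 to 324 in KO samples. Of 7 demethylases and related genes with names outside the rule, 3 were higher and 4 lower, with a median of -0.05. This mixed list held HSPBAP1, JARID2, JMJD1C, JMJD6, MINA, PHF2 and PHF8. The demethylase KDM7A, whose row bears the older name JHDM1D, was in neither set. KDM6A, which removes methyl groups from the H3 mark of Polycomb, had 3.92, 3.75 and 3.74 in control and 4.02, 4.23 and 4.38 in KO samples (0.41, limma, adjusted p = 0.0636). KDM5B had 3.72, 4.09 and 3.99 and then 4.30, 4.33 and 4.13 (0.32, adjusted p = 0.124 by limma), and KDM5C, which also acts on H3, had 5.50, 5.45 and 5.46 and then 5.61, 5.65 and 5.69 (0.18, adjusted p = 0.0503 by limma). Each KO sample of these genes was above each control, while KDM1B (-0.09) and KDM2B (-0.03) were the 2 that were lower.

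Transcript length moved with these values. The 85 genes had a median transcript length of 5274 bases, against 3224 for the 10861 rows with a matched transcript. Across the 85 genes, Spearman's rho of the log2 fold change with transcript length was -0.42 for the KO of MDA-MB-468 cells and 0.36 for that of MDA-MB-231 cells (-0.21 and 0.099 across the 10861 rows). Genes are not independent, and those compared share the same 6 libraries. After a correction for GC content and length the values were -0.23 and 0.26. In MDA-MB-231 cells the median of the 85 genes was then 0.00 in place of 0.07, that of the demethylases 0.11, and 12 of 14 demethylases were still higher. KDM5C was then at 0.06, KDM6A at 0.43.

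The arginine methyltransferases were mostly lower in MDA-MB-231 KO cells, 4 of 6, with a median of -0.19. At an unadjusted p under 0.05 without overlap were PRMT3, PRMT5 and PRMT6 (16.4% of all rows were lower at this p and 19.4% lower without overlap), and after adjustment PRMT6. PRMT5 had 6.89, 6.84 and 6.83 in control and 6.43, 6.58 and 6.75 in KO samples (-0.27, limma, adjusted p = 0.106), and PRMT3 had 4.49, 4.23 and 4.10 and then 3.83, 3.86 and 4.08 (-0.35, adjusted p = 0.120 by limma). In PRMT3 the lowest control was only just above the highest KO sample. The summed FPKM of the 6 genes was 400 to 424 in control and 347 to 399 in KO samples. The other families were mixed, with 8 of 11 deacetylases, 4 of 6 sirtuins, 5 of 11 bromodomain proteins and 7 of 13 remodelers higher. Of 15 KMT and SETD rows, which include the antisense RNA SETD5-AS1, 8 were higher. Among the bromodomain proteins, BAZ1A, a subunit of ISWI remodelers, was at -0.27, and BRD2 at -0.06.

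To ask whether the cell lines responded differently to KO, the change in MDA-MB-231 cells was subtracted from that in MDA-MB-468 cells in 1 limma fit of all 12 samples. The controls are shared with the comparisons above. CHD6 was called, 1 of 85 genes, where 8.71% of all rows were called. Without the limit on the difference, 6 genes passed an adjusted p under 0.05, 3 with a positive difference (PRMT5, PRMT6 and INO80C) and 3 with a negative one (CHD6, SETD5 and KDM5C), where 14.7% of all rows passed (7.91% and 6.83%). At an unadjusted p under 0.05 there were 8 and 12 (31.5% of all rows passed, 17.3% and 14.2%).

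CHD6 encodes an ATPase of the CHD family and lies on the minus strand of chromosome 20 from 40030723 to 40247023 in hg19. Its log2 values in MDA-MB-468 cells were 3.58, 3.45 and 3.41 in control and 3.15, 2.96 and 3.23 in KO samples. In MDA-MB-231 cells they were 3.37, 3.50 and 3.43 in control and 3.63, 3.69 and 3.80 in KO samples. The KO samples thus lay all below the controls in MDA-MB-468 cells and all above them in MDA-MB-231 cells, at 75.4% and 123% of the control FPKM, while the controls of the cell lines differed by 0.05. CHD6 was the only one of the 85 genes whose groups did not overlap in both cell lines in opposite directions. The share of all rows with this pattern was not counted. Within a cell line neither change passed the adjusted test (-0.37, adjusted p = 0.0771, and 0.27, adjusted p = 0.0516, by limma). Their difference was -0.64 (standard error 0.12, adjusted p = 0.00577 by limma) and was called under each of the 20 alternatives, at -0.70 to -0.53.

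**Figure D2:**
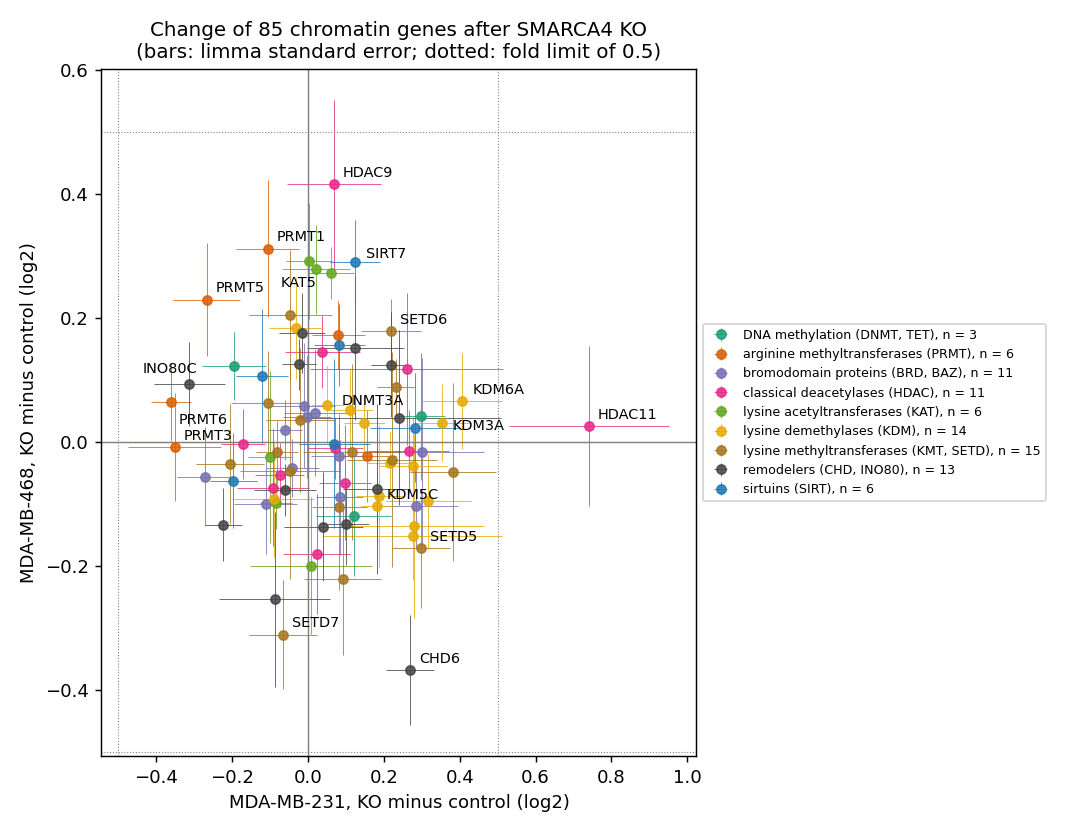
log2 fold change of KO against control in MDA-MB-231 (x axis) and MDA-MB-468 cells (y axis) for the 85 genes, with limma standard errors as bars, families by colour and the limits of 0.5 dotted. CHD6 is at the lower right (0.27 and -0.37), PRMT5 at the upper left (-0.27 and 0.23), and HDAC11, past the limit in MDA-MB-231 cells, has an adjusted p of 0.0784.

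The arginine methyltransferases PRMT5 and PRMT6 also differed in their response. PRMT6 was at 3.82, 3.94 and 3.89 in control and 4.01, 3.98 and 3.85 in KO samples of MDA-MB-468 cells, which overlapped, and fell in MDA-MB-231 cells as given above. The difference of the changes was 0.42 (standard error 0.09, adjusted p = 0.0145 by limma), and it kept an adjusted p under 0.05 in all 20 alternatives (up to 0.0404). PRMT5 was at 5.86, 5.91 and 6.17 in control and 6.15, 6.22 and 6.26 in KO samples of MDA-MB-468 cells, where 1 control lay above the lowest KO sample, and lower in all KO samples of MDA-MB-231 cells. Its difference was 0.50 (standard error 0.13, adjusted p = 0.0307 by limma), which passed in 4 of the 12 fits that left out 1 library (adjusted p = 0.0135 to 0.0723), namely without MDA-MB-231 control replicate 2 or KO replicate 3 or MDA-MB-468 control replicate 3 or KO replicate 1. PRMT1 was at 0.42 with an adjusted p of 0.0744 by limma, and 5 of the 6 family members had a positive difference, also under every alternative tried for this count, which were added after the data were seen. The median of the 6 was 0.38, against 0.02 for all rows.

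SETD5, a SET domain protein of the nucleus, had 5.29, 5.17 and 5.18 in control and 4.88, 5.04 and 5.22 in KO samples of MDA-MB-468 cells. In MDA-MB-231 cells it had 5.61, 5.77 and 5.50 and then 5.94, 5.91 and 5.92. The groups overlapped only in MDA-MB-468 cells, with a difference of the changes of -0.47 (standard error 0.13, limma, adjusted p = 0.0334). The 5' end of SETD5 overlaps the antisense gene SETD5-AS1 between 9439299 and 9440263 on chromosome 3, and since the sources used here do not say whether the counting used the strand, reads from there cannot be assigned to either; SETD5-AS1 itself was at -0.05 in both cell lines.

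KDM5C had 5.49, 5.40 and 5.49 in control and 5.27, 5.38 and 5.41 in KO samples of MDA-MB-468 cells, which overlapped, against values higher in every KO sample of MDA-MB-231 cells. The difference of the changes was -0.29 (standard error 0.08, adjusted p = 0.0432 by limma). INO80C, a subunit of the INO80 remodeler, had 4.55, 4.54 and 4.60 and then 4.75, 4.69 and 4.53 in MDA-MB-468 cells, and 4.80, 4.70 and 4.87 and then 4.37, 4.41 and 4.65 in MDA-MB-231 cells (0.41, standard error 0.12, adjusted p = 0.0468 by limma). INO80C overlapped between the groups in MDA-MB-468 cells and was lower in every MDA-MB-231 KO sample. SETD5, KDM5C and INO80C did not pass with a block for the replicate number (adjusted p = 0.0664, 0.0885 and 0.0543 by limma). When 1 library was left out, KDM5C passed only without MDA-MB-468 KO replicate 3, SETD5 only without MDA-MB-231 control replicate 2, MDA-MB-468 control replicate 3 or KO replicate 3, and INO80C only without MDA-MB-231 control replicate 2 or KO replicate 3 or MDA-MB-468 KO replicate 3 (adjusted p of the 3 genes up to 0.110 by limma). Of the KDM demethylases, 12 of 14 had a negative difference, with a median of -0.28 against 0.02 for all rows. For the mixed list of demethylases and related genes with names outside the rule, which leaves out KDM7A, it was 4 of 7, with a median of -0.02. Spearman's rho of the difference with transcript length was -0.49 across the 85 genes and -0.20 across the 10861 rows. After the correction for GC content and length, the median of the 14 KDM demethylases was -0.21. Among them, KDM3A was at -0.32 (adjusted p = 0.0683 by limma) and KDM6A at -0.34 (adjusted p = 0.117 by limma).

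**Figure D3:**
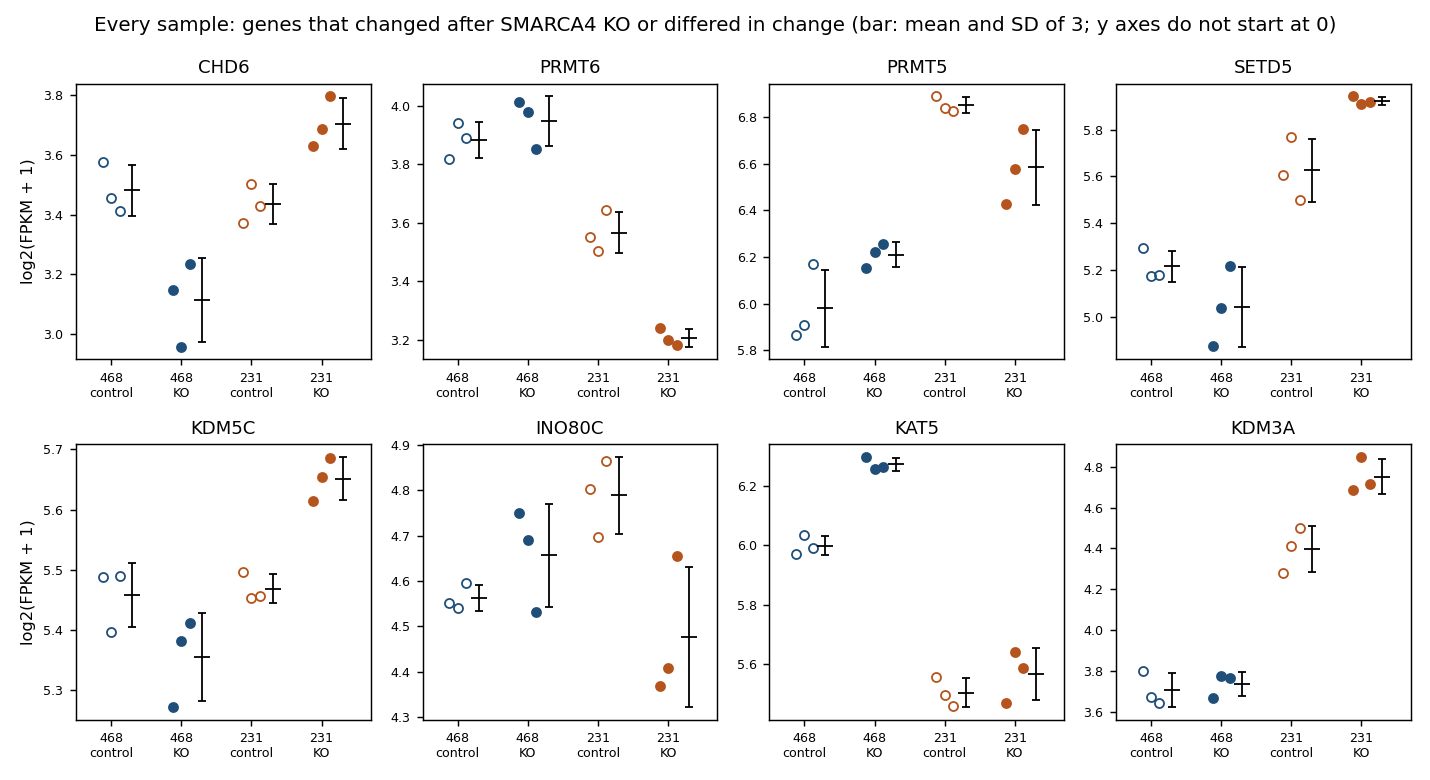
log2(FPKM + 1) in each of the 12 samples of the 6 chromatin genes whose response differed between the cell lines, and of KAT5 and KDM3A. KAT5 and KDM3A rose in KO cells of 1 cell line at an adjusted p under 0.05, but their difference of the changes (0.21 and -0.32) did not pass. Open points are control and filled points KO samples, blue for MDA-MB-468 and orange for MDA-MB-231, with the mean and SD of 3 samples beside them. The CHD6 points of the KO samples lie below the controls in MDA-MB-468 cells (2.96 to 3.23) and above them in MDA-MB-231 cells (3.63 to 3.80).

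Set side by side, 23 of the 85 genes were higher in KO in both cell lines, 18 lower in both, 15 higher in MDA-MB-468 and lower in MDA-MB-231 cells, and 29 the reverse. The same sign was seen for 48.2% of the members and 48.0% of all rows. In 4 genes the groups did not overlap in either cell line and the direction was the same. How many of all rows did so was not counted, so this count says nothing particular to the 85 genes. SETD6 (0.18 and 0.22) and SETDB1 (0.09 and 0.23) were higher in KO, and CHD1 (-0.13 and -0.22) and KAT7 (-0.10 and -0.08) lower. SETD6 had 4.68, 4.73 and 4.62 in control and 4.86, 4.80 and 4.90 in KO samples of MDA-MB-468 cells, and 3.17, 3.06 and 3.32 and then 3.40, 3.34 and 3.47 in MDA-MB-231 cells. The KO samples were only just above the controls in both cell lines (adjusted p = 0.114 and 0.127 by limma).

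DNMT1, TET3 and the large H3 methyltransferases did not pass the test after KO in either cell line. DNMT1 was at 8.61, 8.63 and 8.56 in MDA-MB-468 KO samples, all above the controls (0.12, limma, adjusted p = 0.233), and at 6.85, 7.02 and 7.11 in MDA-MB-231 KO samples, where only the highest was level with the lowest control (-0.20, adjusted p = 0.179 by limma). KMT2A, KMT2C and KMT2D lay between -0.22 and -0.02 in MDA-MB-468 cells and between 0.09 and 0.22 in the other line, with adjusted p of 0.267 or more by limma. For the NuRD ATPases, CHD3 was at -0.13 and 0.10 and CHD4 at -0.08 and -0.06. HDAC1 and HDAC3 differed by 0.15 or less in either cell line, and HDAC2 was at -0.17 in MDA-MB-231 cells with all KO samples below the controls (adjusted p = 0.111 by limma).

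Other chromatin genes with names outside the rule, 137 rows in 8 lists of partner subunits and related enzymes, were counted in the same way. MLLT3, a YEATS domain reader of acylated histones, was called in MDA-MB-468 cells, 1 of 137 (0.730%, against 2.14% of all rows). It had 2.71, 2.56 and 2.70 in control and 2.03, 2.06 and 2.09 in KO samples, all KO samples lower (-0.60, standard error 0.06, limma, adjusted p = 0.0147). It passed an adjusted p under 0.05 in 1 of the 6 fits that left out 1 library, that without KO replicate 1. In MDA-MB-231 cells 0 were called by limma, 8 had an adjusted p under 0.05 (5.84%, against 10.8% of all rows) and 39 an unadjusted p under 0.05 (28.5% against 31.2%). The difference of the changes was called for 4, ZMYND8 (-0.82), MLLT3 (-0.70) and TRIM24 (-0.60), readers of histone marks, and the methyltransferase SMYD3 (0.67), 2.92% of the 137 against 8.71% of all rows. ZMYND8 had 4.72, 4.53 and 4.44 in control and 4.18, 3.93 and 3.87 in KO samples of MDA-MB-468 cells, and 4.78, 4.92 and 4.80 and then 5.16, 5.07 and 5.02 in MDA-MB-231 cells, with no overlap in either. Between the control samples, 44 of the 137 were called higher and 31 lower in MDA-MB-468 cells, 54.7% against 64.1% of all rows.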

How the data were processed

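RNA was prepared with a TruSeq stranded mRNA kit. Per the authors, trimming was by Trimmomatic, alignment to hg19 by STAR and FPKM estimation by RSEM. Genes whose FPKM had a mean or SD under 1 were left out by them, and the deposited table holds log2(FPKM + 1), 1 column per sample. Whether the counting used the strand was not given in the sources used here. The values were used as deposited, without a further filter. In the table the smallest mean FPKM was 1.07 and the smallest SD 1.00, and 18 rows hold a date in place of a symbol; these stayed in the fits. All 12 columns were used. The deposited values carry no read counts, so no counting interval could be given.

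The KO and control samples, 3 against 3, were compared within a cell line by lmFit and eBayes of limma 3.58.1 (R 4.3.3), without a trend. The difference of the changes came from 1 fit of all 12 samples in 4 groups, and the control samples were fitted alone. P-values were adjusted by Benjamini-Hochberg over 11529 rows. The 2 KO comparisons share no sample, but the controls of each also enter the comparison of controls and the difference. The fits were tested on simulated data.

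Named were SMARCA4, the called genes, in each KO comparison the 10 largest with an adjusted p under 0.05, the 15 largest called differences between controls, the 5 highest and 5 lowest levels, a list of well-known regulators, and all members of a count of 5 or fewer; SETD7, SIRT7, KAT7, KAT8, PRMT2 and BRD9 were added after their values were seen. The members, families and lists were chosen with earlier results of these data known.

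The titles give the samples of a cell line the same replicate numbers. Deviations from the group means of same-numbered samples correlated across genes at 0.25, 0.16 and 0.12 in MDA-MB-468 cells, and at -0.05, 0.07 and -0.11 in MDA-MB-231 cells. Different-numbered samples reached 0.13 in MDA-MB-468 cells (control replicate 3 with KO replicate 2) and 0.22 in MDA-MB-231 cells (control replicate 1 with KO replicate 3). Genes are not independent, so whether the numbers pair the samples is not settled by these values. A number after the letter p in the descriptions, whose meaning is not given, was used as another block in MDA-MB-468 cells. In MDA-MB-231 cells the control and KO samples of a replicate number also share this p number, and in MDA-MB-468 cells they do not.

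Alternatives were a pseudocount of 0.1, a filter on a mean log2 value over 2, scaling to the 75th percentile, quantile normalization, a trend in eBayes, the blocks, a loess correction (span 0.3) for GC content and transcript length, 1 fit of all samples, no limit on the fold change and leaving out each sample in turn. Symbols were matched to GENCODE transcripts lifted to hg19 through the current name (10165 rows) or an older one (696 rows), 94.2% in all. Python 3.11.15, numpy 2.4.6 and matplotlib 3.10.9 were used for annotation and figures.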

Additional observations from a re-analysis of the deposited data

Results flagged for a closer look

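The change after SMARCA4 KO differed between the cell lines at an adjusted p under 0.05 (limma, interaction of cell line and KO over 12 samples) in 6 of the 85 genes (14.7% of all rows), in SMARCA4 and in 8 of the 137 partner genes, of which the 4 also past 0.5 on the log2 scale are given. Positive values mean a higher change in MDA-MB-468 cells. CHD6 was at -0.64, SETD5 at -0.47 and KDM5C at -0.29, and PRMT5 at 0.50, PRMT6 at 0.42 and INO80C at 0.41. SMARCA4, the target, was at 0.41, and its RNA fell less in MDA-MB-468 cells. It passed in 14 of 20 alternatives and in 6 of the 12 fits that left out 1 library (adjusted p up to 0.0668 by limma), namely without MDA-MB-231 control replicate 1 or 3 or KO replicate 2 or 3, or without MDA-MB-468 control replicate 3 or KO replicate 1. Of the partner genes, ZMYND8, MLLT3, TRIM24 and SMYD3 were at -0.82, -0.70, -0.60 and 0.67. CHD6, PRMT6 and these 4 genes passed in all 20 alternatives, and PRMT5, SETD5, KDM5C and INO80C in 11, 10, 6 and 5 of them. No group has 4 or more samples, so no search for outlying samples within a group was made.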

How the results depend on the processing

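In MDA-MB-468 cells the count of called members was 0, and 1 with the GC content and length correction (HDAC9), also with the replicate block, 1 without a limit on the fold change (KAT5), and 0 to 1 when 1 library was left out (HDAC9 without KO replicate 1). The calls over all rows ranged from 0 to 474 in these fits. In MDA-MB-231 cells it was 0, and 1 with the filter on mean log2 over 2 or in 1 fit of all 12 samples (HDAC11), 5 without the limit, and 0 when any 1 library was left out. For the difference of the changes it was 1, and 2 with a pseudocount of 0.1 (CHD6, PRMT5), 2 with 75th percentile scaling or quantile normalization (CHD6, SETD5), 6 without the limit, and 1 to 3 when 1 library was left out. Between controls it was 36, 61 without the limit, and 35 to 37 when 1 library was left out. The cause of these shifts was not tested; the lifted limit admits more genes by its construction. With a replicate block, 0, 0, 1 and 36 members were called, and 0, 0, 3 and 56 had an adjusted p under 0.05, against 1, 5, 6 and 61. In MDA-MB-231 cells, where this block is also that of the p number, 0 rows passed (smallest adjusted p 0.0520 by limma). There 24 members had an unadjusted p under 0.05. With GC correction, PRMT6 and KDM3A of the 5 kept an adjusted p under 0.05. The p number block left SMARCA4 at an adjusted p of 0.127. No gene named with an adjusted p under 0.05 changed sign. The median of all rows moved by less than 0.05 under each scaling. Unknown depth and 3 samples per group limit the small changes reported here.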
